A study of Mus musculus with 6 samples.

Results

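The AP-1 and Egr immediate early genes are 10 genes chosen by name with earlier results of these data known, *Fos*, *Fosb*, *Jun*, *Junb*, *Jund*, *Egr1*, *Egr3*, *Ier2*, *Atf3* and *Nr4a1*, of the 36976 genes for which the authors deposited RNA-Seq values. The libraries came from LT-CML stem cells, the most primitive leukaemia cells (CD150+CD48-CD135- Lineage-Sca-1+cKit+) sorted from the bone marrow of C57BL/6 mice with chronic myelogenous leukaemia. Every animal carried *SCL-tTA* and *TRE-BCR-ABL1*, so that withdrawal of doxycycline at 5 weeks of age switched on BCR-ABL1 where the *SCL* element drives the tTA activator, and cells were taken 5 weeks after induction at 10 to 12 weeks of age. *Gdpd3*+/+ mice (22 males and 12 females) were compared with *Gdpd3*-/- mice (5 males and 5 females), in which a Cas9-made deletion lies shortly after the first methionine of the lysophospholipase D gene *Gdpd3*. Animals were pooled into 3 libraries per genotype, replicates 1, 2 and 3 of *Gdpd3*+/+ and replicates 5, 6 and 7 of *Gdpd3*-/-, and how the animals were divided among libraries is not given in the sources used here. Because these are bulk libraries, fewer cells of a type and less RNA per cell cannot be told apart.

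Immediate early genes are transcribed soon after a cell receives a growth factor, cytokine or stress signal, without waiting for new protein. Fos and Jun family proteins pair through leucine zippers to form the transcription factor AP-1, Egr proteins are zinc finger transcription factors, and Nr4a1 is an orphan nuclear receptor. In haematopoietic stem cells AP-1 and Egr1 are studied for their links to quiescence, and Junb is known as a brake on myeloid proliferation.

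Depth differed between the genotypes. FPKM, fragment counts scaled to the length of the gene and to the total counted on genes, moves in steps from which the total of each library was worked out, although whether a counted unit is a read or a read pair cannot be told from the values. Values of single libraries are given throughout in the order of replicates 1, 2 and 3 for *Gdpd3*+/+ and 5, 6 and 7 for *Gdpd3*-/-. The *Gdpd3*+/+ totals were about 49753100, 62762400 and 61283200 units and the *Gdpd3*-/- totals 21334700, 36421400 and 25136800 units, with medians that differed by a factor of 2.44. Separate pools are the only replicates, so p-values measure only the spread between libraries. *Gdpd3* itself had 7.30, 3.29 and 2.95 FPKM in *Gdpd3*+/+ and 0.110, 0.0129 and 0.681 FPKM in *Gdpd3*-/-. Each library labelled *Gdpd3*-/- lay below each *Gdpd3*+/+ library, with a log2 fold change of -4.00 (standard error 0.77, limma adjusted p = 0.0588). The log2 fold change was -2.07 with a pseudocount of 1 and -5.07 with 0.01, and lay between -4.79 (without *Gdpd3*-/- replicate 7) and -3.39 (without replicate 6) when 1 library was left out. It passed at a minimum mean of 1 FPKM (0.0481) and without *Gdpd3*-/- replicate 7 (0.0106), and the adjusted p was 0.269 without *Gdpd3*+/+ replicate 1. Antisense to it, *Gm9967* overlaps 190 exonic bases, and the SMART-Seq v4 kit used for these libraries does not mark strand, so fragments of overlapping genes cannot be told apart.

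Only *Fosb* passed the genome-wide threshold, higher in *Gdpd3*-/- LT-CML stem cells, and that call was kept in 4 of 15 alternative settings. With array weights *Jun* alone passed. Without *Gdpd3*-/- replicate 6, *Jun*, *Junb*, *Jund* and *Ier2* passed but *Fosb* did not. Of the 10 genes, 9 had a mean of at least 0.05 FPKM over the 6 libraries and were tested, and only *Egr3* fell below that limit. *Fosb* alone passed an adjusted p of 0.05 (limma on log2(FPKM + 0.1), Benjamini-Hochberg adjustment over 24689 genes), against 1.09% of all genes tested called higher and 0.616% called lower. At an unadjusted p under 0.05, 7 of the 9 were higher, against 16.5% of all genes. In 8 of the 9 every *Gdpd3*-/- library stood above every *Gdpd3*+/+ library, which held for 23.5% of all genes, while none of the 9 showed the opposite arrangement, found in 8.27% of all genes. Because the members were chosen with results known, these shares describe them and test nothing. The median log2 fold change of the 9 was 1.11, against 0.24 over all genes tested.

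**Figure D1:**
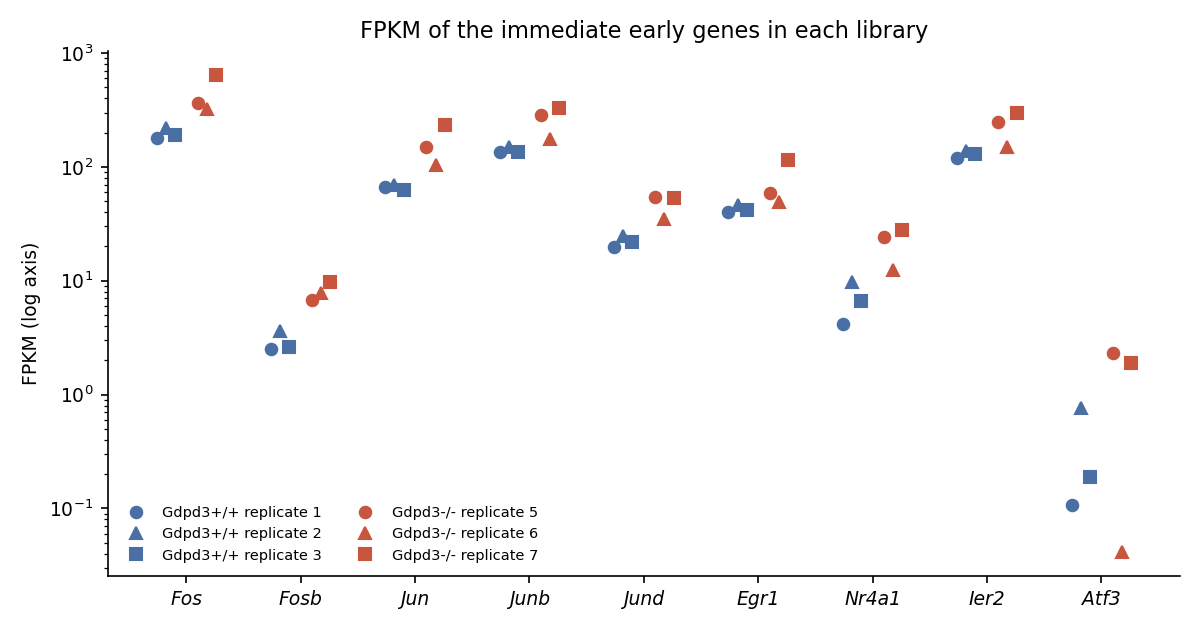
FPKM (log axis) of 9 immediate early genes in each of the 6 libraries, with blue symbols for *Gdpd3*+/+ and red symbols for *Gdpd3*-/- and 1 symbol shape per replicate. The genotypes overlap only for *Atf3*, and *Egr3*, at 0 in 4 libraries, is not drawn.

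*Fos* (ENSMUSG00000021250.7, chromosome 12) encodes the founding Fos protein and was the most abundant of the 10 genes. Its FPKM was 180, 220 and 189 in *Gdpd3*+/+ and 365, 321 and 647 in *Gdpd3*-/-. The *Gdpd3*+/+ libraries lay close together, whereas *Gdpd3*-/- replicate 7 stood well above replicates 5 and 6, and the genotypes did not overlap. The means were 196 ± 20.9 and 444 ± 177 FPKM (SD, n = 3 each), a ratio of 2.26. The log2 fold change was 1.11 (standard error 0.26), and limma's adjusted p was 0.0840, above the threshold. Without *Gdpd3*-/- replicate 7 the adjusted p of *Fos* was 0.0186, with a smaller log2 fold change of 0.81, and it reached 0.305 without *Gdpd3*+/+ replicate 3.

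*Fosb* (ENSMUSG00000003545.2, chromosome 7), a Fos relative that also pairs with Jun proteins, was far scarcer and was the single member to pass the test. It had 2.52, 3.58 and 2.64 FPKM in *Gdpd3*+/+ and 6.77, 7.78 and 9.74 FPKM in *Gdpd3*-/-. All *Gdpd3*-/- libraries were higher, and the lowest of them was 1.89 times the highest *Gdpd3*+/+ library. *Fosb* rose by a log2 fold change of 1.44 (standard error 0.22, limma adjusted p = 0.0417). These values rest on 470 to 1063 counted units per library. The call of *Fosb* lies near the threshold, and on simulated data the procedure made more false calls than the threshold allows. The call was lost without *Gdpd3*+/+ replicate 1 (limma adjusted p = 0.236), replicate 2 (0.162) or replicate 3 (0.235), and without *Gdpd3*-/- replicate 5 (0.0627) or replicate 6 (0.0544), and it held without replicate 7 (0.0251). It was also lost with a pseudocount of 1 (0.0547), no filter (0.0538), TMM scaling (0.0577), quantile normalization (0.0564), no intensity trend (0.0789) and array weights (0.0981), and kept in 4 of the 15 alternatives, with a log2 fold change of at least 1.21 in each of the 15.

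Promoter windows, 250 bases before to 50 bases after the start of the gene, were found in the RefSeq table (GRCm38.p6) for 7 of the 10 genes, all but *Egr1*, *Egr3* and *Ier2*. Those of *Fos*, the most abundant member, *Fosb*, the member that passed the test, and *Nr4a1*, the member with the largest log2 fold change in the limma fit with all 6 libraries, are printed 5′ to 3′ on the strand of the gene, and capitals mark every match to the motifs searched on both strands. They lie at chr12:85473640-85473939 (plus strand), chr7:19309996-19310295 (minus strand) and chr15:101266596-101266895 (plus strand).
Fos: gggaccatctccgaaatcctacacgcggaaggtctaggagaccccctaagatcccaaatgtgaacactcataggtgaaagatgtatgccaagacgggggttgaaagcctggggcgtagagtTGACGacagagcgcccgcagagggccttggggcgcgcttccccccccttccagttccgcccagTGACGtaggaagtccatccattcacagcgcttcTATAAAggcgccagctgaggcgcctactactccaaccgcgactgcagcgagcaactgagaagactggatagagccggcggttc
Fosb: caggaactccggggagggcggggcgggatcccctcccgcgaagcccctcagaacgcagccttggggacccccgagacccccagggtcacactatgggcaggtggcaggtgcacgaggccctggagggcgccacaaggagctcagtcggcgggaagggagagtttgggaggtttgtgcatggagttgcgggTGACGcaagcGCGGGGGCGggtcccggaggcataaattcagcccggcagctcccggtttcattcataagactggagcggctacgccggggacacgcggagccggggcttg
Nr4a1: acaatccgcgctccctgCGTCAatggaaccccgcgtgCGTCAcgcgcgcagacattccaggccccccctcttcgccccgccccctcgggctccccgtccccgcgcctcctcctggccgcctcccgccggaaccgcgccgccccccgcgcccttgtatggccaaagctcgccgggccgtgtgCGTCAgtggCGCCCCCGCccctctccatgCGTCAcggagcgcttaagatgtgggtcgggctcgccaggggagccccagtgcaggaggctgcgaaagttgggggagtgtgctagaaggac
TGACG, the core of the cAMP response element, was present in 5 of the 7 windows (*Fos*, *Fosb*, *Junb*, *Atf3* and *Nr4a1*) and in 20.8% of the 32851 windows in the table. *Nr4a1* held it 4 times, each on the opposite strand, and *Fos* held it 129 and 66 bases before the start. The Egr element GCGNGGGCG was in the windows of *Fosb* and *Nr4a1* and in 5.55% of all windows, and TATAAA, the letters of a TATA box, was in those of *Fos*, 33 bases before the start, and *Junb*, at bases 1 to 6 from the start on, and in 13.6% of all windows. No member window held the complete TGACGTCA (1.79% of all windows), the AP-1 element TGANTCA (7.81%), the ETS core with its flank CCGGAAG (8.86%) or the CArG box (1.63%), and TGACG is contained in TGACGTCA, so that these matches overlap by construction. A match describes letters in a window and says nothing of binding. A missing match says nothing of sites outside the window or of sites with other letters.

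*Jun* (ENSMUSG00000052684.3, chromosome 4), the main partner of Fos in AP-1, had 66.2, 69.8 and 63.0 FPKM in *Gdpd3*+/+ and 150, 104 and 234 FPKM in *Gdpd3*-/-. The genotypes were apart, with *Gdpd3*-/- replicate 7 highest and replicate 6 lowest of its group. The log2 fold change of *Jun* was 1.21 (standard error 0.27, limma adjusted p = 0.0798), and the adjusted p was 0.0393 without *Gdpd3*-/- replicate 6, 0.0298 without replicate 7, 0.0468 with array weights and up to 0.297 without *Gdpd3*+/+ replicate 3. *Junb* (ENSMUSG00000052837.4, chromosome 8), which can oppose Jun, had 134, 150 and 135 FPKM in *Gdpd3*+/+ and 286, 175 and 332 FPKM in *Gdpd3*-/-. Here *Gdpd3*-/- replicate 6 came within 1.17 times the highest *Gdpd3*+/+ library without overlap. Its log2 fold change was 0.87 (standard error 0.23, limma adjusted p = 0.1001), and the adjusted p was 0.0290 without replicate 6 and up to 0.327 without *Gdpd3*+/+ replicate 3.

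*Jund* (ENSMUSG00000071076.4, chromosome 8), the Jun protein usually present in resting cells, had 19.9, 24.8 and 22.1 FPKM in *Gdpd3*+/+ and 54.1, 34.7 and 53.1 FPKM in *Gdpd3*-/-. Replicates 5 and 7 were alike and replicate 6 was lower, still above all *Gdpd3*+/+ libraries. The log2 fold change was 1.06 (standard error 0.20, limma adjusted p = 0.0560), close to the threshold. *Jund* passed at a minimum mean of 1 FPKM (adjusted p = 0.0424), without *Gdpd3*-/- replicate 6 (0.0278) or replicate 7 (0.0465) and in limma voom on the counted units, an alternative chosen after seeing the data (0.0489), and its adjusted p reached 0.256 without *Gdpd3*+/+ replicate 3. The exons of *Jund* share 543 bases with *Gm11175* and those of *Jun* 232 bases with *BC042782*, both on the opposite strand, so fragments of each pair cannot be told apart and these values are uncertain to that extent.

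*Egr1* (ENSMUSG00000038418.6), the zinc finger factor most often read as a marker of fresh signalling, had 40.1, 46.7 and 42.2 FPKM in *Gdpd3*+/+ and 58.7, 49.5 and 116 FPKM in *Gdpd3*-/-. The genotypes did not overlap, but *Gdpd3*-/- replicate 6 was only 1.06 times the highest *Gdpd3*+/+ library and replicate 7 was far above the rest. *Egr1* had a log2 fold change of 0.70 (standard error 0.31, limma adjusted p = 0.240), with a 95% interval from -0.03 to 1.43. Without replicate 7 the log2 fold change was 0.33. *Egr3* (ENSMUSG00000033730.2, chromosome 14), a relative studied mainly in lymphocytes and neurons, was listed at 0 in 4 libraries, with 0.0380 FPKM in *Gdpd3*+/+ replicate 2 and 0.0271 FPKM in *Gdpd3*-/- replicate 7. These values correspond to 3.5 and 1 counted units, so no difference was detectable at this depth and no fold is given.

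*Nr4a1* (ENSMUSG00000023034.6, chromosome 15), the nuclear receptor, varied most within *Gdpd3*+/+ among the 8 members with a mean of at least 1 FPKM. Its values were 4.17, 9.79 and 6.60 FPKM in *Gdpd3*+/+ and 24.0, 12.5 and 27.7 FPKM in *Gdpd3*-/-. The lowest *Gdpd3*-/- library, replicate 6, was 1.27 times the highest *Gdpd3*+/+ library. *Nr4a1* had the largest log2 fold change of the 9 tested with all 6 libraries, 1.63 (standard error 0.40, limma adjusted p = 0.0886), above 93.0% of all genes tested, and passed the threshold in none of the alternatives.

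*Ier2* (ENSMUSG00000053560.4, chromosome 8), a small nuclear protein of the early response, had 120, 138 and 131 FPKM in *Gdpd3*+/+ and 250, 148 and 299 FPKM in *Gdpd3*-/-. Replicates 5 and 7 lay well above *Gdpd3*+/+ and replicate 6 just above it. The log2 fold change was 0.79 (standard error 0.25, limma adjusted p = 0.138), and the adjusted p was 0.0312 without replicate 6 and up to 0.383 without *Gdpd3*+/+ replicate 1. *Atf3* (ENSMUSG00000026628.8, chromosome 1), a stress-responsive factor of the same leucine zipper class, had 0.106, 0.755 and 0.189 FPKM in *Gdpd3*+/+ and 2.34, 0.0415 and 1.90 FPKM in *Gdpd3*-/-. The genotypes overlapped, because *Gdpd3*-/- replicate 6, with 3 counted units, was the lowest of the 6 libraries and replicates 5 and 7 were the highest. Its log2 fold change of 1.25 had a standard error of 1.19 (limma adjusted p = 0.535) and moved to 0.52, 2.58 and 0.66 without *Gdpd3*-/- replicate 5, 6 or 7 and to 0.83 and 1.86 without *Gdpd3*+/+ replicate 1 or 2, and a two-sided exact permutation test of mean FPKM gave p = 0.4 (n = 3 per group). The same exact permutation test gave p = 0.1, the smallest that 3 libraries against 3 allow, for each of the other 8 tested members.

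**Figure D2:**
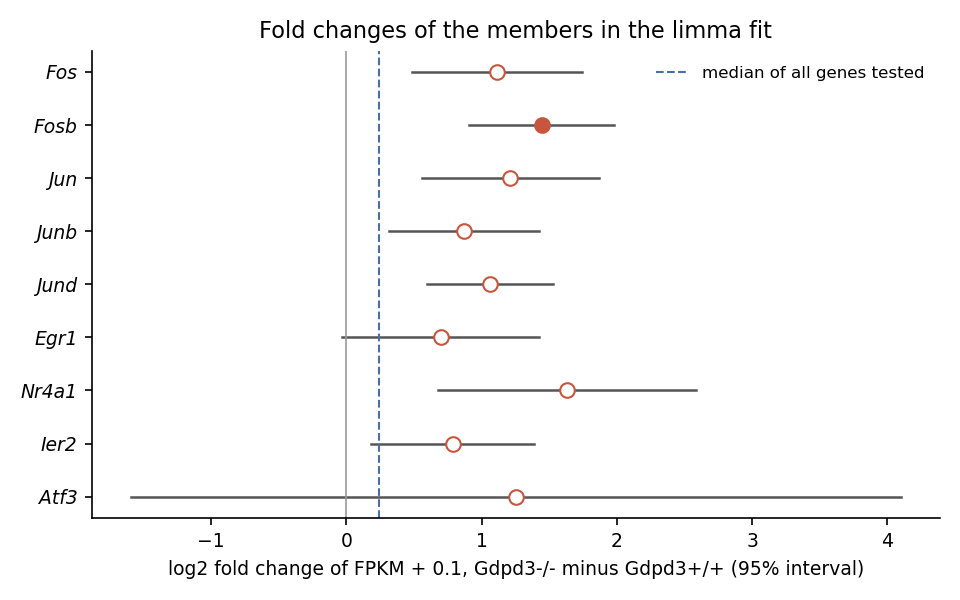
Log2 fold change (*Gdpd3*-/- minus *Gdpd3*+/+, log2(FPKM + 0.1)) of each tested member with its 95% interval from limma, 3 libraries per genotype. The filled point, *Fosb*, passed an adjusted p of 0.05, open points did not, the dashed line is the median of all genes at 0.24, and the intervals of *Egr1* and *Atf3* include 0.

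Most members shared the highest and the lowest library of each genotype. Among *Gdpd3*-/- libraries replicate 7 was highest for 7 of the 9 tested members and replicate 5 for 2 of them (*Jund* and *Atf3*), and replicate 6 was lowest for 8, with *Fosb* lowest in replicate 5. Within *Gdpd3*+/+ replicate 2 was highest for all 9 and replicate 1 lowest for 8. For the 8 members with a mean of at least 1 FPKM the median log2 difference from the *Gdpd3*+/+ mean was 1.10, 0.65 and 1.58 in *Gdpd3*-/-, against 0.16, 0.12 and 0.19 over all 15103 genes at that level, whose medians stood in the same order. Together the 10 genes took 0.126%, 0.148% and 0.131% of the counted units in *Gdpd3*+/+ and 0.266%, 0.194% and 0.394% in *Gdpd3*-/-. At the settings described, no member other than *Fosb* passed with all 6 libraries, 4 passed without *Gdpd3*-/- replicate 6 (*Jun*, *Junb*, *Jund* and *Ier2*), 4 without replicate 7 (*Fos*, *Fosb*, *Jun* and *Jund*), and none without replicate 5 or without any *Gdpd3*+/+ library in the limma fits. Over all genes, 462 of 23839 were called without replicate 6, 3413 of 24056 without replicate 7 and 187 of 23727 without replicate 5. Without *Gdpd3*+/+ replicate 1, 2 or 3 only 0, 1 and 21 genes were called, so the count of 0 members there says nothing about the members.

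Ratios between members within a library are unaffected by a constant factor per library, such as that of TMM, but not by quantile normalization. The 5 ratios given were chosen after the values were seen, and p-values were adjusted over these 5 alone. These p-values therefore describe the chosen ratios and test nothing. *Fos* over *Jun* was 2.72, 3.15 and 3.01 in *Gdpd3*+/+ and 2.44, 3.08 and 2.77 in *Gdpd3*-/-, which overlap (two-sided exact permutation p = 0.5, adjusted 0.625). *Fos* over *Egr1* was 4.48, 4.71 and 4.49 in *Gdpd3*+/+ and 6.21, 6.49 and 5.57 in *Gdpd3*-/-, without overlap (exact permutation p = 0.1, the smallest possible, adjusted 0.25). *Junb* over *Jun* was 2.03, 2.15 and 2.15 in *Gdpd3*+/+ and 1.92, 1.68 and 1.42 in *Gdpd3*-/-, every *Gdpd3*-/- library being lower (exact permutation p = 0.1, adjusted 0.25). *Fos* over *Fosb* (means 68.2 ± 5.86 and 53.9 ± 12.6, SD, n = 3 each, exact permutation p = 0.2, adjusted 0.333) and *Jun* over *Jund* (2.82 to 3.33 and 2.76 to 4.40, n = 3 each, exact permutation p = 0.7) overlapped between the genotypes.

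**Figure D3:**
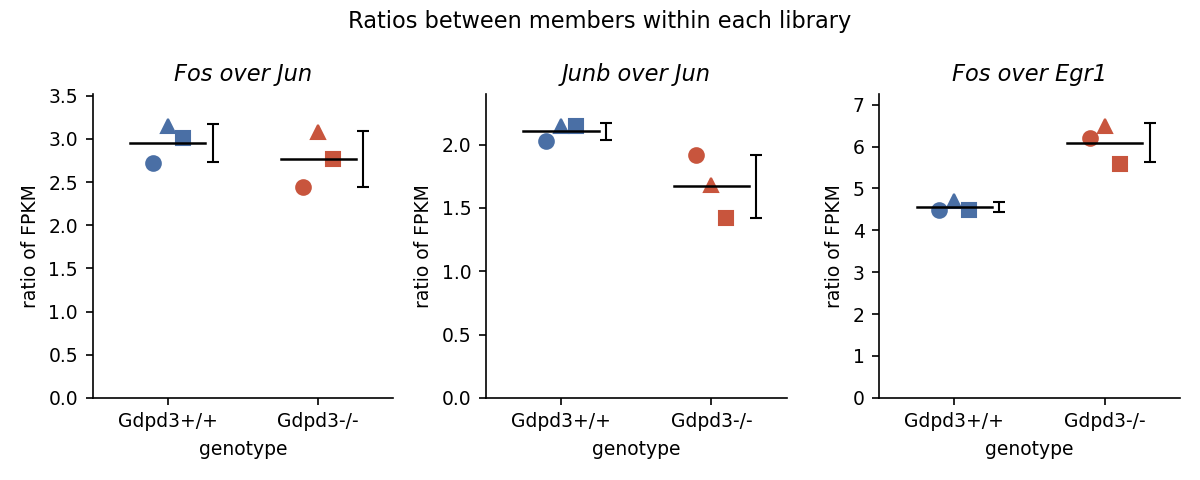
Ratio of FPKM between a pair of members within each library (axis from 0), for *Fos* over *Jun*, *Junb* over *Jun* and *Fos* over *Egr1*, with lines at the means and bars of 1 SD (n = 3). *Fos* over *Jun* overlaps between the genotypes, *Junb* over *Jun* is lower in each *Gdpd3*-/- library and *Fos* over *Egr1* is higher in each.

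Genes related to the members were read from lists chosen with earlier results known. At an unadjusted p under 0.05 in limma 3 of 8 other AP-1 proteins were higher, against 16.5% of all genes. None of the 8 passed an adjusted p of 0.05 in limma or voom, and their median log2 fold change was 0.55. The most abundant, *Batf*, a partner of Jun in lymphoid and myeloid cells, had 36.0, 46.5 and 34.0 FPKM in *Gdpd3*+/+ and 77.0, 59.0 and 46.4 FPKM in *Gdpd3*-/-, and *Jdp2* and *Atf2* had log2 fold changes of -0.37 and -0.24. Of the 9 Egr, Nr4a and Ier relatives and Nab corepressors of Egr proteins, 7 were tested. At an unadjusted p under 0.05 in limma 4 of the 7 were higher, against 16.5% of all genes. None of the 7 passed an adjusted p of 0.05 in limma or voom, and their median was 0.50. Their most abundant genes were *Ier3* (log2 fold change 0.60, limma adjusted p = 0.0756), *Nab1* (-0.33) and *Ier5* (0.50), while *Egr4* and *Nr4a3* stayed below the limit of 0.05 FPKM.

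Of 28 other immediate early genes, 2 rose and none fell in limma (3 and 0 in voom), with a median log2 fold change of 0.40, against 0.24 over all genes. Of all genes 1.09% were called higher in limma. Above 0 lay 21 of the 28, as did 16066 of all 24689 genes tested, and 17 of the 28 exceeded the median of all genes. At an unadjusted p under 0.05, 11 were higher, against 16.5% of all genes, and 2 were lower, against 1423 of all 24689 genes. The lower ones, named after their values were seen, were *Gadd45b*, a stress-induced regulator of growth arrest (log2 fold change -0.62, limma adjusted p = 0.0560), and *Cebpd*, a leucine zipper factor (-0.53, 0.104), neither of which overlapped between the genotypes. *Dusp1* and *Dusp2* encode phosphatases that switch off MAP kinases and are themselves induced by them. *Dusp1* had 140, 149 and 130 FPKM in *Gdpd3*+/+ and 270, 232 and 360 FPKM in *Gdpd3*-/-, a log2 fold change of 1.02 (standard error 0.17, limma adjusted p = 0.0469). *Dusp2* had 54.6, 56.4 and 53.2 FPKM in *Gdpd3*+/+ and 121, 112 and 107 FPKM in *Gdpd3*-/-, a log2 fold change of 1.05 (standard error 0.09, limma adjusted p = 0.00996). For both genes the genotypes did not overlap, and *Dusp2* was nearly level across the *Gdpd3*-/- libraries. Leaving out any *Gdpd3*+/+ library ended both calls (limma adjusted p up to 0.247 for *Dusp1* and 0.125 for *Dusp2*), as did leaving out *Gdpd3*-/- replicate 5 for *Dusp1* (0.0829). Scaling also ended the call of *Dusp1* (limma adjusted p = 0.0771 after TMM and 0.125 after quantile normalization) but not that of *Dusp2* (0.0159 and 0.0154). Of the 15 alternatives, *Dusp1* was called in 6 and *Dusp2* in 11. *Zfp36*, the most abundant of the list and an RNA-binding protein that destabilizes cytokine mRNA, had a log2 fold change of 1.01 (limma adjusted p = 0.0708), and *Mcl1*, a survival factor, 0.13 (0.612).

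The kinases and factors that act upstream of these genes showed a median log2 fold change of 0.06 over 22 genes, none of which passed (0 at an adjusted p under 0.05 in voom). At an unadjusted p under 0.05 in limma 4 of the 22 were higher and none lower, against 16.5% of all genes higher. These 4, named after their values were seen, were *Map2k2* (log2 fold change 0.42, limma adjusted p = 0.0738), *Elk3* (0.55, 0.135), *Mrtfa* (0.38, 0.208) and *Elk4* (0.36, 0.223). Among the most abundant, *Mapk14*, a p38 kinase, and *Rps6ka1*, a ribosomal S6 kinase, had log2 fold changes of -0.12 and -0.14, and only mRNA, not kinase activity, was measured. Heat shock genes had a median of 0.38, and 2 of 10 rose, against 1.09% of all genes called higher. At an unadjusted p under 0.05 in limma 5 of the 10 were higher, against 16.5% of all genes. In 6 of the 10 every *Gdpd3*-/- library stood above every *Gdpd3*+/+ library, against 23.5% of all genes. *Hspa1b* had 0.264, 0.136 and 0.194 FPKM in *Gdpd3*+/+ and 2.85, 6.16 and 11.9 FPKM in *Gdpd3*-/-, a log2 fold change of 4.37 (standard error 0.55, limma adjusted p = 0.0275). Every *Gdpd3*-/- library was higher, replicate 7 most. With a pseudocount of 1 the log2 fold change of *Hspa1b* was 2.57 and the call was lost (limma adjusted p = 0.0577). *Hspa1a*, its near-identical copy, with which fragments can be shared, had a log2 fold change of 3.78 (limma adjusted p = 0.0584) and of 1.82 with a pseudocount of 1, and *Hspe1*, a mitochondrial chaperonin, rose by 0.55 (limma adjusted p = 0.0443). Without any 1 *Gdpd3*+/+ library the adjusted p of *Hspa1b* was at least 0.158, and *Hspa1b* was called in 10 and *Hspe1* in 6 of the 15 alternatives. Scaling ended the call of *Hspe1*, with a log2 fold change of 0.34 after TMM (limma adjusted p = 0.125) and 0.40 after quantile normalization (0.0999). *Hsp90ab1*, *Hspa8* and *Hsp90aa1*, the most abundant of the list, had log2 fold changes of 0.23, 0.33 and 0.10. The part of heat shock or handling in the values of the members was not tested.

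**Figure D4:**
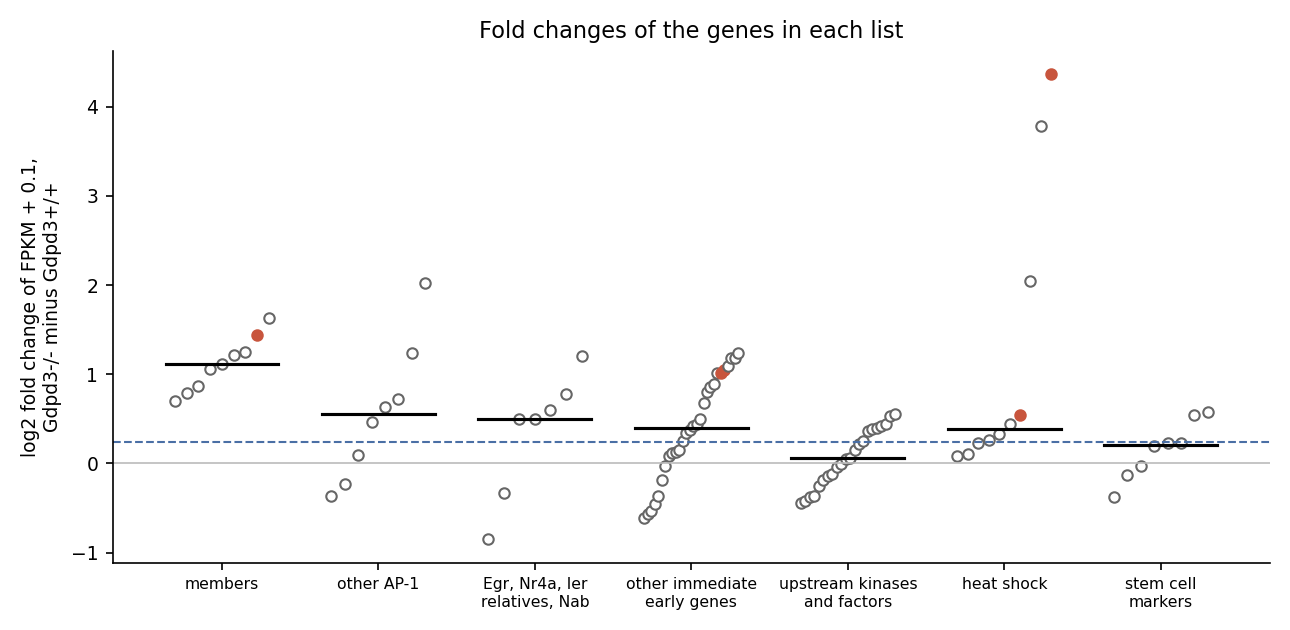
Log2 fold change (*Gdpd3*-/- minus *Gdpd3*+/+, log2(FPKM + 0.1)) of each tested gene in the members, 5 lists of related genes and the stem cell markers, with a black line at each list's median, a dashed line at the median of all genes (0.24) and filled points for genes with a limma adjusted p under 0.05. Among these 7 groups of genes the medians run from 1.11 for the members to 0.06 for the upstream kinases and factors.

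Markers of other cell types differed in level between the libraries. Stem cell markers were present in all libraries, led by *Ly6a*, and none of 8 passed an adjusted p of 0.05 in limma or voom. At an unadjusted p under 0.05 in limma 2 of the 8 were higher, against 16.5% of all genes. Of 6 genes that the sort selects against, *Cd8a* was at or near 0 and *Flt3*, which encodes CD135, rose from 11.0, 10.6 and 9.80 FPKM in *Gdpd3*+/+ to 46.5, 37.8 and 36.8 FPKM in *Gdpd3*-/- (log2 fold change 1.93, limma adjusted p = 0.00562). The most abundant, *Cd48*, had 39.8, 41.2 and 44.8 FPKM in *Gdpd3*+/+ and 51.6, 54.0 and 92.2 FPKM in *Gdpd3*-/-, all higher and replicate 7 most (log2 fold change 0.60, limma adjusted p = 0.188). *Itgam*, which encodes CD11b and is named here after its values were seen, had 22.3, 20.6 and 19.3 FPKM in *Gdpd3*+/+ and 13.4, 1.69 and 8.43 FPKM in *Gdpd3*-/-, with every *Gdpd3*-/- library lower (log2 fold change -1.82, limma adjusted p = 0.193). The *Flt3* call was lost without *Gdpd3*+/+ replicate 1 (limma adjusted p = 0.0705) or replicate 2 (0.0502). Skeletal muscle markers, led by *Acta1* and none at 0, took 0.167%, 0.116% and 0.113% of the counted units in *Gdpd3*+/+ and 1.45%, 2.09% and 0.277% in *Gdpd3*-/-. All 12 were higher at an unadjusted p under 0.05, against 16.5% of all genes, and none passed an adjusted p of 0.05 in limma or voom. Among the *Gdpd3*-/- libraries, muscle markers were highest in replicate 6, where most members were lowest, and lowest in replicate 7, where most members were highest. The summed shares of both lists were higher in each *Gdpd3*-/- library than in each *Gdpd3*+/+ library. The part of muscle in the values of the members was not tested.

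Neutrophil and monocyte markers, led by *S100a8*, took 1.45%, 1.26% and 1.37% of units in *Gdpd3*+/+ and 0.731%, 0.435% and 0.483% in *Gdpd3*-/-, and 3 of 8 fell in limma (*Ltf*, *Camp* and *Ly6c2*) and 5 in voom. *Csf1r* of that list had means of 4.39 and 5.71 FPKM (log2 fold change 0.34), *Lyz2* had a log2 fold change of -0.20, and *Ly6g*, against which the sort selects, had 0.04. These genes, named after their values were seen, overlapped between the genotypes. Of all genes 0.616% were called lower in limma. B and plasma cell markers, led by *Jchain*, took 0.492%, 0.456% and 0.576% in *Gdpd3*+/+ and 0.227%, 0.214% and 0.379% in *Gdpd3*-/-, and 2 of 9 fell (*Xbp1* and *Mzb1*, of which voom called only *Xbp1*), with *Ms4a1* and *Pax5* listed at 0 in *Gdpd3*-/- replicate 6 and *Pax5* also in replicate 5. *Cd79b* of that list, named after its values were seen, had 39.5, 39.9 and 39.8 FPKM in *Gdpd3*+/+ and 50.2, 58.7 and 50.4 FPKM in *Gdpd3*-/-, all higher (log2 fold change 0.41, limma adjusted p = 0.0863). Each of the calls in these blood cell lists and that of *Hspe1* was lost without any 1 of the *Gdpd3*+/+ libraries (limma adjusted p from 0.116 for *Mzb1* without replicate 2 to 0.247 for *Mzb1* and *Hspe1* without replicate 3). Lost without *Gdpd3*-/- replicate 5 were *Mzb1* (limma adjusted p = 0.0913), *Xbp1* (0.0720) and *Hspe1* (0.0582), and without replicate 6 *Mzb1* (0.0679), *Camp* (0.0533) and *Hspe1* (0.0533). *Mzb1* was called in 5 of the 15 alternatives, *Xbp1*, *Ltf* and *Camp* in 9 each and *Ly6c2* in 11. Erythroid markers, led by *Hba-a1*, and megakaryocyte markers, led by *Pf4*, had none of 5 called in each list (1 lower in each at an unadjusted p under 0.05 in limma, and 0 at an adjusted p under 0.05 in voom), and no gene of either list was at 0 in all libraries. At the same unadjusted threshold 1423 of all 24689 genes were lower. The part of these cell types in the values of the members was not tested.

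**Figure D5:**
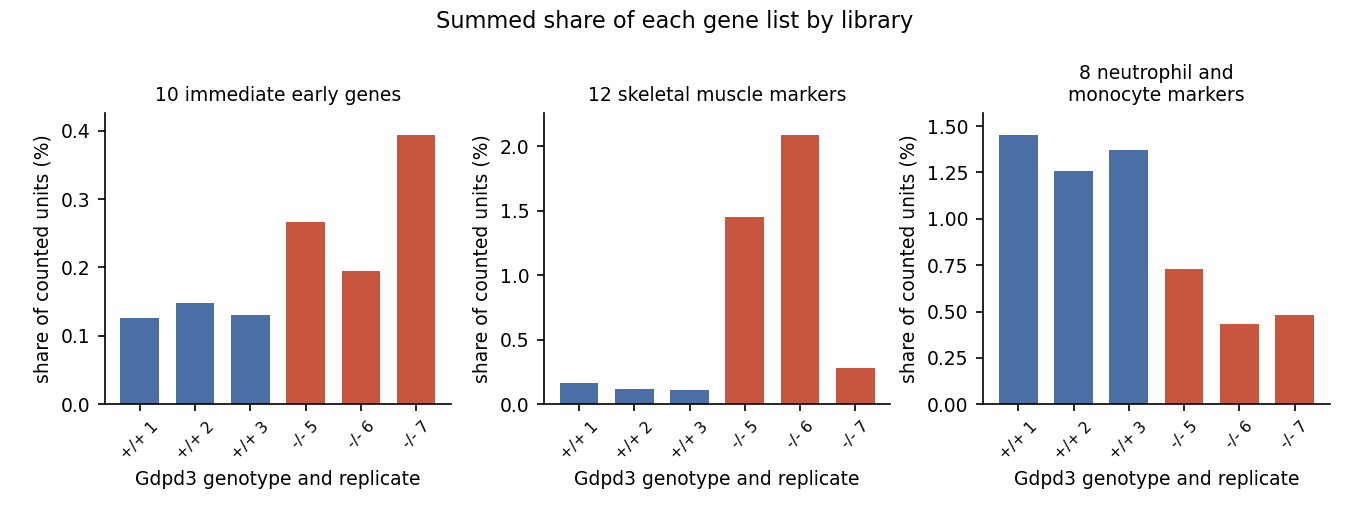
Share of counted units (percent, axes from 0) taken by the 10 members, 12 skeletal muscle markers and 8 neutrophil and monocyte markers in each library, blue for *Gdpd3*+/+ and red for *Gdpd3*-/-. The members are highest in *Gdpd3*-/- replicate 7 (0.394%) and the muscle markers in replicate 6 (2.09%). The shares of both are higher in each *Gdpd3*-/- library than in each *Gdpd3*+/+ library.

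Genes whose pattern over the 6 libraries was most like *Fos*, by the root mean square difference of centred log2(FPKM + 0.1) among 15095 genes with a mean of at least 1 FPKM, were *Klf2* (0.11), *BC042782* (0.15), *Irf8* (0.15), *Dusp1* (0.15) and *Gbp8* (0.16). *Jun* differed from *Fos* by 0.13 on the same measure. *Klf2*, a Krüppel-like factor of endothelial and blood cells and 1 of the 28 other immediate early genes, had 9.94, 12.7 and 9.93 FPKM in *Gdpd3*+/+ and 18.7, 20.2 and 39.7 FPKM in *Gdpd3*-/-, so it shared the high value of replicate 7. Closest to the mean of the 9 tested members were *Gm128* (0.17), *Cd244* (0.18), *BC042782* (0.19), *Gm11175* (0.19) and *Sstr2* (0.21). Members were left out of both rankings, and *Jun* (0.18), *Junb* (0.19) and *Jund* (0.20) lay closer to that mean than *Sstr2*. *BC042782* and *Gm11175* are the genes whose exons share bases with *Jun* and *Jund*, so fragments of each pair cannot be told apart.

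Scaling shifted the level of all genes and ended the call of *Fosb*. The median over all genes was 0.24 as deposited, 0.06 after TMM scaling and -0.01 after quantile normalization, and the median of the 9 members lay 0.87, 0.85 and 0.90 above it. TMM moves the genes of a library nearly alike, so this distance says nothing about scaling, and *Fosb* had a limma adjusted p of 0.0577 after TMM scaling and 0.0564 after quantile normalization. All 9 kept a log2 fold change above 0 and above the median of all genes in each alternative in which they were tested, which is 14 of 15 for *Atf3* and 15 for the others. For the 8 members without overlap between the genotypes, a value above 0 was fixed in advance except under scaling or voom. Over all genes, 270 were called higher and 152 lower as deposited, 121 and 237 after TMM scaling, and 119 and 206 after quantile normalization.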

How the data were processed

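Per the submitters' processing notes, reads were trimmed (Trimmomatic, Trim Galore, cutadapt 1.16), aligned to mm9 with STAR 2.6.1a and counted with featureCounts 1.6.1. The authors deposited FPKM for 36976 genes in 6 libraries. A deposited DESeq2 table of fold changes and p-values was not used. FPKM times gene length fell in whole steps (tolerance 0.001 step), 100 to a counted unit, which gave the depths.

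Genotypes were compared with limma 3.58.1 (R 4.3.3, intensity trend) on log2(FPKM + 0.1), a scale that understates changes of low genes, for genes with a mean of at least 0.05 FPKM. Benjamini-Hochberg adjustment ran over all genes tested (threshold 0.05). Single values had two-sided exact permutation tests. Tested on simulated data in which each genotype kept its own spread, the procedure made more false calls than the threshold allows, which bears on calls near it (*Fosb*, *Dusp1*, *Hspe1*, *Mzb1*). Figures used Python 3.11.15 and matplotlib 3.10.9.

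Members and lists were chosen with earlier results of these data known. Named were all members, *Gdpd3*, each list's called genes (at most 6) and 3 most abundant, each marker list's most abundant gene and those at 0, and 5 genes of like pattern; some genes this rule takes are not reported here. *Hspa1a*, the ratios, the promoters shown and voom were chosen after the values were seen. Alternatives were other pseudocounts, filters, scalings and weights, no trend, voom and leaving out each library.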

Additional observations from a re-analysis of the deposited data

How the results depend on the processing

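No paired analysis was possible because the genotypes share no replicate number. As reported, 422 genes were called (270 higher, 152 lower) and 1 member. The counts were 576 (386 and 190) and 1 member with a pseudocount of 0.01, 225 (124 and 101) and 0 members with a pseudocount of 1, 213 (125 and 88) and 0 members with no filter, and 673 (471 higher) and 2 members at a mean of at least 1 FPKM. TMM scaling gave 121 higher, 237 lower and 0 members, and quantile normalization 119 higher and 0 members. Without the intensity trend 153 were called (79 and 74) with 0 members, and with array weights 240 (124 higher) with 1 member, *Jun*. Voom on the counted units, chosen after seeing the data, called 903 (671 and 232) and 2 members. Leaving out 1 library gave 0 to 3413 genes (0 to 2364 higher, 0 to 1049 lower) and 0 to 4 members, the lowest without *Gdpd3*+/+ replicate 1 and the highest count of genes without *Gdpd3*-/- replicate 7. The cause was not tested. No tested member changed direction in any alternative run. For 8 of the 9 tested, every *Gdpd3*-/- library stood above every *Gdpd3*+/+ library. Leaving out 1 library or changing pseudocount, filter, trend or weights therefore could not reverse them, and their kept direction tests nothing there. The *Gdpd3*-/- libraries are the shallower ones, and *Egr3* and *Atf3* rest on the fewest counted units.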
